A study of Mus musculus with 10 samples.

Results

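Among 8 bulk RNA-seq libraries of mouse kidney, 3 held a profile of heart muscle: the library labelled uninjured 1, the library labelled uninjured 4 and the library labelled nephrectomy 3. They were selected on the measured level of Myh6, the main cardiac myosin motor of the adult mouse, taking every library above 10000 counts per 1000000 counts (CPM) after transcripts were summed to genes. The other 5 libraries of the same pair of groups (uninjured 2 and 3, nephrectomy 1, 2 and 4) had a kidney profile and form the comparison. The lowest library inside the threshold, uninjured 4, had 30525 CPM of Myh6, and the highest outside it, nephrectomy 1, had 313.6 CPM. All 8 are labelled kidney, so the labels and the transcripts of these 3 libraries conflict, and the tissue names below describe profiles. Because the libraries were chosen by Myh6, every difference between the heart-profile and kidney-profile libraries is given as a description, with no test.

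The series holds 32 bulk libraries in 8 groups and a pair of pooled single-cell tables, 10 samples in all. Uninjured mice and mice sampled at the kidney contralateral to a nephrectomy were both C57/BL6 and 8 weeks old, and the labels give neither a transgene, a drug nor an interval after nephrectomy for them. The other 24 bulk libraries come from ischaemia-reperfusion injury arms, injured or contralateral kidneys, in C57/BL6 mice or Pax8creERT2;Ihhfl/fl mice with tamoxifen or without it, also 8 weeks old; the renal artery of 1 side was tied for 15 minutes and kidneys were taken 2 weeks later. The labels do not say that the 4 libraries of a group came from separate animals, so p-values below measure only the spread between these libraries. Total counts ran from 27320004 to 33748994 in the heart-profile libraries. They were 26305372, 28047848 and 8337150 in nephrectomy 1, 2 and 4 and 593231 and 7563141 in uninjured 2 and 3. At the depth of uninjured 2, 3 counts already amount to 5.07 CPM, so a 0 in that library is a weak limit.

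The heart pumps by cycles in which calcium released from the sarcoplasmic reticulum lets myosin heads pull on actin filaments, and it burns mainly fatty acids to pay for them. The kidney filters blood at the glomerulus and recovers most of the filtrate through transporters placed segment by segment along the tubule, with sodium reabsorption as the largest cost. In heart muscle, factors of the MEF2, GATA and serum response factor families bind short motifs near contractile genes, and in tubule epithelium factors of the HNF1 and HNF4 families do so near transporter genes.

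Promoter sequences of RefSeq (GRCm38.p6) are shown for 3 heart and 2 kidney genes among those that differed most, to let a reader see such motifs beside genes with these levels. Each run is the 250 bases before the annotated start, 5′ to 3′ on the gene's own strand, and the genes were picked after their values and motifs were known. Capitals mark matches on either strand to a MEF2 site, a CArG box (the serum response factor motif), the GATA motif AGATAA, the HNF1 motif TTAATNATT or the HNF4 motif CAAAGTCCA. The first base of the match is counted back from the start.
Actc1, cardiac alpha actin, chr2:114052876-114053125, minus strand, CArG box at position -47: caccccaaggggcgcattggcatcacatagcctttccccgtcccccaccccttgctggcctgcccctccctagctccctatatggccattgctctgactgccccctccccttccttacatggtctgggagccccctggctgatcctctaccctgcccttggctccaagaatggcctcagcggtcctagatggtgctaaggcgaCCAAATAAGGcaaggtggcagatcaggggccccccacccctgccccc
Myl7, atrial myosin light chain, chr11:5898783-5899032, minus strand, CArG box at position -61: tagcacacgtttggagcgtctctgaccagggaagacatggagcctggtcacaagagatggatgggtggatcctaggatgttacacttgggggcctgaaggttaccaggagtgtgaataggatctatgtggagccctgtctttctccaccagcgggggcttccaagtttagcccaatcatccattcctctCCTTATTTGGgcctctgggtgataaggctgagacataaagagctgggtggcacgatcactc
Ttn, titin, chr2:76982548-76982797, minus strand, MEF2 site at position -166: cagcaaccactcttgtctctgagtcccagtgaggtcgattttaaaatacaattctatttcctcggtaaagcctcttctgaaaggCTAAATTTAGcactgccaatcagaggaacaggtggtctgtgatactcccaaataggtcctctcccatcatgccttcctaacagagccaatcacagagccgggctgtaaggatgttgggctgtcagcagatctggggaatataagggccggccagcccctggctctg
Slc12a1, the loop of Henle sodium-potassium-chloride cotransporter, chr2:125152350-125152599, plus strand, HNF1 motif at position -209: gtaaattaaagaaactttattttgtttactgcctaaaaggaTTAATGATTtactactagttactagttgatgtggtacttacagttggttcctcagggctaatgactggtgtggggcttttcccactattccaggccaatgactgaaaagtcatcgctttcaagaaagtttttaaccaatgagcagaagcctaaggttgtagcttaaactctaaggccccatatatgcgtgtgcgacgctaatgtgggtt
Acsm2, a medium-chain acyl-CoA synthetase, chr7:119554090-119554339, plus strand, HNF1 motif at position -118 and GATA motif at position -65: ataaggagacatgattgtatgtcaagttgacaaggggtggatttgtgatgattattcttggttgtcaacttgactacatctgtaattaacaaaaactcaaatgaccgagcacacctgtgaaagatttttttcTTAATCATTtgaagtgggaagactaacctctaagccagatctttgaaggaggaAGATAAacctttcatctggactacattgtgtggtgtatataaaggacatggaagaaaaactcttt
Over all 32851 RefSeq promoter windows of this length, 0.508% held the MEF2 site, 1.47% the CArG box, 9.99% the GATA motif, 1.4% the HNF1 motif and 0.384% the HNF4 motif. The windows of Myh6, Slc34a1 and Umod held none of these letters, and 1 window of Tnnt2 had a GATA motif at position -166. A match is a description of letters, not a bound site. The share of motifs among genes higher in either profile was not computed, because only 76.7% of the 14856 measured genes had a promoter in the table, under the 80% set as the minimum.

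The markers that name the profiles separated the libraries by orders of magnitude. Myh6 (14:54941921-54968017, GRCm38.p6) stood at 31549, 30525 and 31039 CPM in uninjured 1, uninjured 4 and nephrectomy 3. In the kidney-profile libraries it was 313.6, 0.679 and 0.481 CPM after nephrectomy and 1.69 and 1.19 CPM in uninjured 2 and 3, and the 24 ischaemia-arm libraries ranged from 0.0791 to 3.56 CPM. Nephrectomy 1 was thus the highest of all libraries without a heart profile, although far below the 3 with one. Actc1 (2:114047282-114052875) stood at 5633, 6107 and 5300 CPM in the heart-profile libraries, at 63.5 CPM in nephrectomy 1 and between 0 and 0.133 CPM in the other 4. Tnnt2 (1:135836315-135852268), cardiac troponin T, was 2491, 2074 and 2736 CPM against 22.2 CPM in nephrectomy 1 and 0 to 1.89 CPM elsewhere. The kidney markers ran the other way. Slc34a1 (13:55399622-55414695), which reclaims phosphate in the proximal tubule, was measured at 1.83, 0.92 and 3.70 CPM in uninjured 1, uninjured 4 and nephrectomy 3 and at 4983, 5210, 4789, 4775 and 4650 CPM in nephrectomy 1, 2 and 4 and uninjured 2 and 3. Umod (7:119462708-119479262), uromodulin of the thick ascending limb, was 0.751, 0.386 and 0.807 CPM against 3796, 4368, 3968, 3844 and 4352 CPM. For all 5 markers the groups did not overlap, and the differences of mean log2(CPM + 1) were 12.49, 11.21, 9.69, -10.69 and -11.28 in that order.

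**Figure D1:**
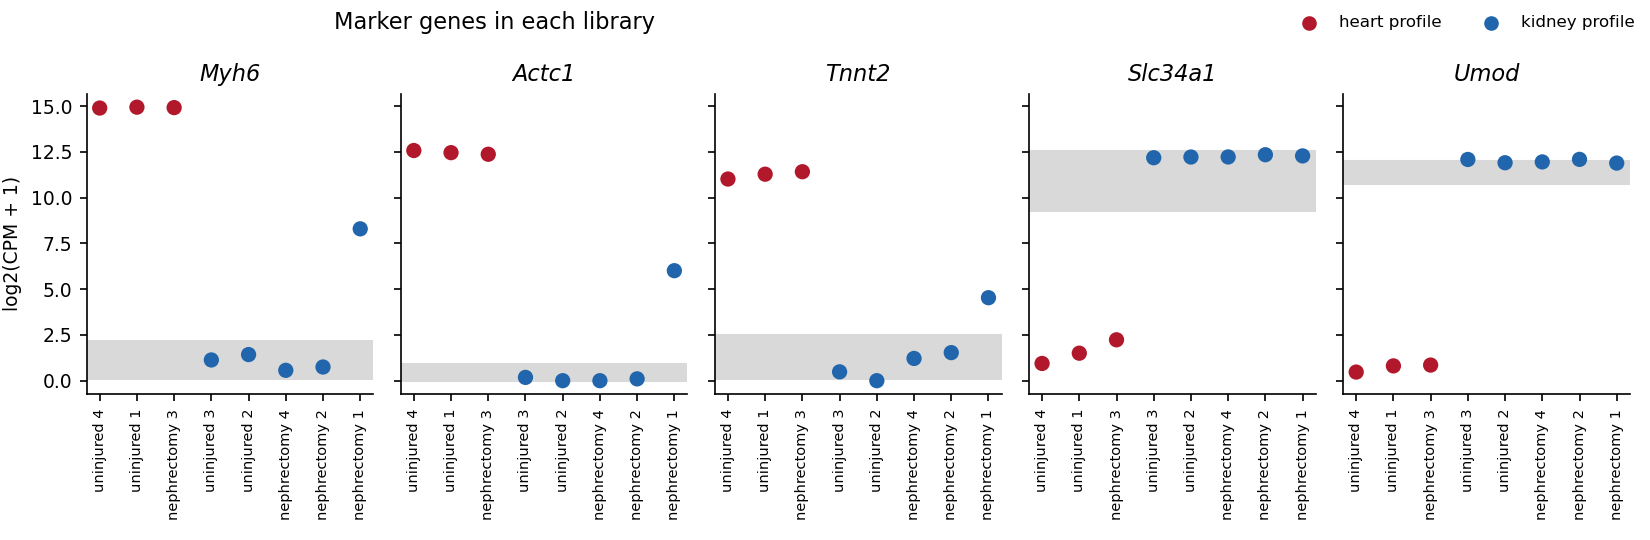
Level of 5 marker genes in each of the 8 libraries, as log2(CPM + 1), with heart-profile and kidney-profile libraries in different colours and the range of the 24 ischaemia-arm libraries as a grey band. Myh6 sits at 30525 CPM or more in 3 libraries, at 313.6 CPM in nephrectomy 1 and under 2 CPM in the other 4, while Umod and Slc34a1 run the opposite way.

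Across the genome, 664 of 14856 measured genes (4.47%) were higher in all 3 heart-profile libraries with a gap of at least 4-fold, and 1249 (8.41%) were higher in all 5 kidney-profile libraries by the same rule. The rule asks that the lowest library of one side, as CPM + 1, exceed the highest of the other by 4 times. The rest, 12943 genes, met neither, and 9014 genes (60.7%) had means within 2-fold of each other. These shares come from the contrast that chose the libraries and serve only as the background for the lists that follow. The median difference over all genes, heart-profile minus kidney-profile, was -0.16 on the log2 scale as CPM, 0.0018 after TMM scaling and 0.09 after RLE scaling. In bulk RNA, fewer cells of a type and less RNA per cell cannot be told apart, which applies to every level below.

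The contractile apparatus was the heaviest single group. All 26 listed sarcomere genes were among the heart-higher genes, none was higher in kidney, and the median difference was 8.56 on the log2 scale against -0.16 over all genes. Together they took 14.5%, 14.8% and 14.1% of all counts in uninjured 1, uninjured 4 and nephrectomy 3, 0.165% in nephrectomy 1 and 0.0106% to 0.0164% in the other kidney-profile libraries. Ttn, the giant spring of the sarcomere and a gene of great length, alone held 7.49%, 7.91% and 7.45% of the counts. Per unit length the order changed: in transcripts per 1000000 transcripts (TPM) the heart-profile means were 12503 ± 256 (SD, n = 3) for Myh6, 12243 ± 1302 for Myl2 (the ventricular regulatory light chain), 9039 ± 690 for Actc1, 8455 ± 818 for Tpm1 (tropomyosin), 7018 ± 463 for Tnni3 (cardiac troponin I) and 6479 ± 1053 for Myl3 (the ventricular essential light chain). The spreads of Myh6 and Myl2 overlap, as do those of Actc1 and Tpm1. Atp2a2, the calcium pump SERCA2, at 11151 ± 1155 TPM and Mb, myoglobin, at 11032 ± 1098 TPM stood in the same range. Mitochondria-encoded genes were kept out of this ranking; mt-Co1, for example, was at 78624 ± 4694 TPM. Among the other genes Gm28437 had the highest value, 52312 ± 4353 TPM, with Gm28661 at 8229 ± 2113; both are nuclear copies of mitochondrial sequence, so their reads may be shared with the mitochondrial genome and the values are uncertain. Sarcomere members that the kidney-profile libraries also held included Tpm1 at 65.6 ± 21.3 CPM (SD, n = 5), Cryab, a small heat shock protein, at 18.5 ± 8.74 CPM and Myom2, a myomesin, at 18.1 CPM on average.

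Calcium handling and excitability followed with more exceptions. Of 14 calcium cycling genes, 10 were heart-higher, and of 17 ion channel and gap junction genes, 14 were. The ryanodine receptor Ryr2, which releases calcium from the reticulum, stood at 6482, 7137 and 6386 CPM in uninjured 1, uninjured 4 and nephrectomy 3. Pln, phospholamban, the brake on SERCA2, was at 4023, 4748 and 3337 CPM. Atp2a2 itself was at 18899, 21452 and 17768 CPM against 925 ± 58.9 CPM (SD, n = 5), and the difference was 4.39 on the log2 scale. Sri, sorcin, went against the list, at 30.5, 36.5 and 36.5 CPM against 79.3 ± 6.05 CPM. Fkbp1b, which stabilises the ryanodine receptor, was low on both sides and the ranges overlapped. It was at 0.360 to 0.550 CPM in the heart-profile libraries and at 0 to 1.33 CPM in the kidney-profile ones. Slc8a1, the sodium-calcium exchanger shared by heart and distal tubule, was at 444, 450 and 494 CPM against 307 ± 67.9 CPM, and S100a1 also missed the rule. Among channels and junctions, Gja1, connexin 43, stood at 482, 594 and 521 CPM, while Kcnq1, Kcnj2 and Gja5 did not meet the rule.

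Transcription regulators separated at lower absolute levels. Of 13 cardiac regulators, 12 passed the filter on low counts and 11 were heart-higher. Gata4 was at 102, 107 and 115 CPM, Nkx2-5 at 34.4, 39.8 and 33.7 CPM and Tbx5 at 61.2, 48.4 and 78.2 CPM in uninjured 1, uninjured 4 and nephrectomy 3. Mef2a, expressed in both tissues, missed the rule at a mean of 386 CPM against 135 CPM, and Hand1 stayed below the filter. Of 10 renal regulators, 9 were kidney-higher. Hnf4a, a master regulator of proximal tubule differentiation, was at 0.450, 0.238 and 0.734 CPM against 1118 ± 106 CPM (SD, n = 5). Pax2, Hnf4g and Emx1 had 0 counts in all 3 heart-profile libraries, with Pax2 at 33.7 ± 9.61 CPM in the kidney-profile ones. The exception was Esrrb, a nuclear receptor, which was at 32.4, 27.3 and 29.5 CPM in the heart-profile libraries and 37.7 CPM on average in the others.

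**Figure D2:**
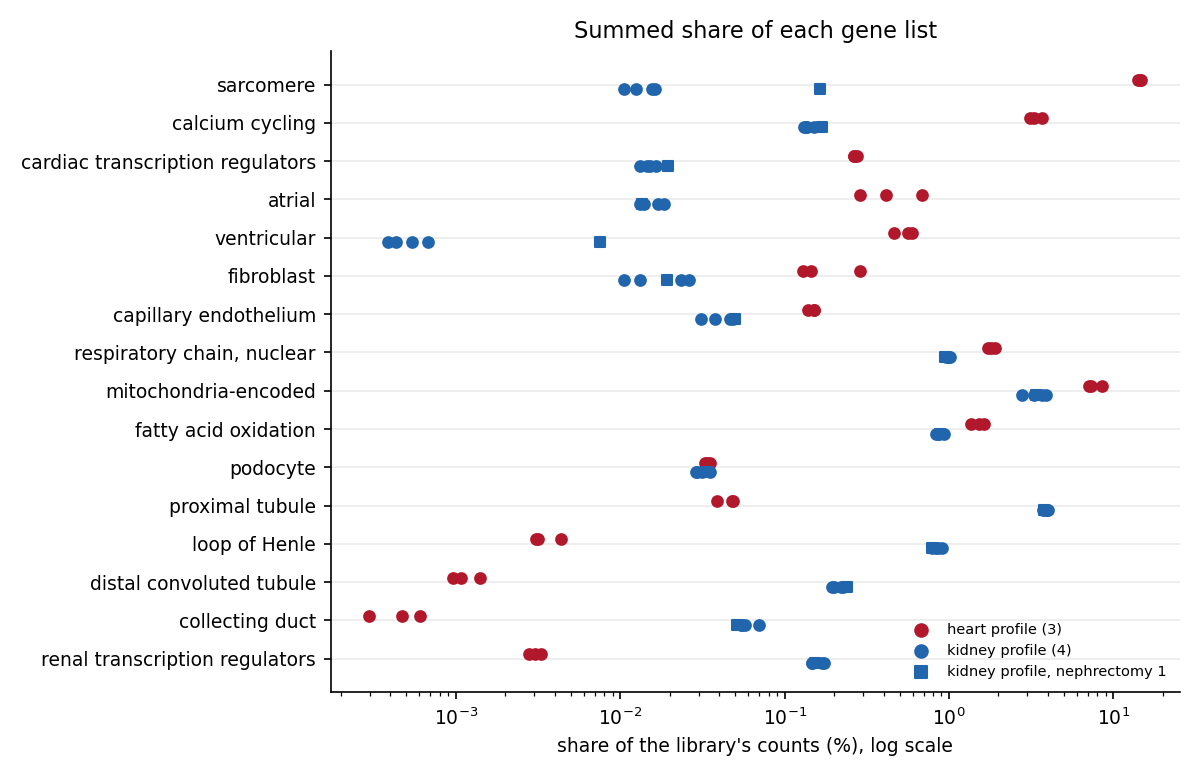
Share of all counts taken by selected gene lists in each of the 8 libraries, in percent on a log axis, with heart-profile libraries in red, kidney-profile libraries in blue and nephrectomy 1 as a square. The sarcomere list takes over 14% in the 3 heart-profile libraries and at most 0.165% in the others, and the proximal tubule list 3.71% to 3.98% in the kidney-profile libraries and under 0.05% in the heart-profile ones.

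Every tubule segment was low in the heart-profile libraries. The rule called 13 of 14 proximal tubule genes, 7 of 7 loop of Henle genes, 5 of 6 distal convoluted tubule genes and 10 of 11 collecting duct genes kidney-higher, and none heart-higher. Lrp2, megalin, the endocytic receptor of the proximal tubule, was at 17.7, 5.08 and 13.6 CPM in uninjured 1, uninjured 4 and nephrectomy 3 against 9811 ± 521 CPM (SD, n = 5). Kap, the androgen-regulated kidney protein, was at 6.73, 3.15 and 11.4 CPM against 9007 ± 455 CPM, and at 29344 ± 1330 TPM had the highest level per length in the kidney-profile libraries outside the mitochondria-encoded genes, where mt-Co1 was at 30427 ± 2203 TPM. For Lrp2 and Kap, uninjured 4 was the lowest of the 3. Slc12a1 was at 0.450, 0.267 and 0.293 CPM against 1423 ± 121 CPM, and Slc12a3, the thiazide-sensitive cotransporter, at 1.71, 1.81 and 2.86 CPM against 1544 ± 99.3 CPM. Aqp2, the vasopressin-regulated water channel, was at 0.150, 0.0594 and 0.110 CPM against 124 ± 37.8 CPM. Scnn1b, a subunit of the epithelial sodium channel, had 0 counts in all 3 against 38.6 ± 1.17 CPM. The exceptions were Aqp1, the water channel of proximal tubule and also of capillary endothelium, at 322, 431 and 419 CPM against 768 ± 68.6 CPM, and Pvalb and Slc4a1, the band 3 anion exchanger that red cells also carry.

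Endocrine genes and the filtration barrier differed between themselves. Kl, klotho, the FGF23 co-receptor, was at 1.23, 0.43 and 0.92 CPM against 1262 CPM on average, and Ren1, renin, at 0.06, 0.03 and 0.22 CPM against 18.2 ± 8.12 CPM (SD, n = 5). Epo had no counts in any of the 8 libraries. Of 10 Hedgehog pathway genes, the subject of the wider study, 8 passed the filter and only the ligand Ihh met the rule, at 0.210, 0 and 0 CPM against 11.1 ± 5.39 CPM. Of 7 podocyte genes, 2 were kidney-higher, among them Nphs1 (nephrin), a slit diaphragm protein, at 1.27, 1.46 and 1.54 CPM against 23.6 ± 4.17 CPM. The other 5, among them Podxl, Synpo, Wt1 and Magi2, met the rule in neither direction. Synpo, an actin-binding protein, was higher in the heart-profile libraries at 118, 116 and 127 CPM against 41.7 ± 5.96 CPM. The podocyte list is therefore the renal list whose median difference, -0.09, was closest to the median of all genes.

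Beyond these lists, the 15 widest gaps on the heart side, by lowest heart-profile against highest kidney-profile library, were led by Nppa (atrial natriuretic peptide), Bmp10, Myl4, Myl7 and Tbx20, with Myh6, Tnni3, Ttn, Tnnt2, Sln, Mylk3, Actc1, Ryr2 and Sbk3 among the rest. The first 4 of them are atrial genes. Nephrectomy 1 held 313.6 CPM of Myh6 and at most 0.152 CPM of each of these 4. Nppa was at 1831, 1157 and 3296 CPM in uninjured 1, uninjured 4 and nephrectomy 3 and at 0.152 CPM in nephrectomy 1, with 0 in the other 4. On the kidney side Umod led, followed by Acsm2, Slc34a1, Slc12a1, Fut9, Keg1, Abca13, Ugt3a2, Slc27a2, Kap, Mep1a, Klk1, Ugt2b38, Cyp2j5 and Apob. Acsm2 was at 2.07, 1.04 and 2.64 CPM against 3987 to 4792 CPM in the 5 kidney-profile libraries.

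Genes of fatty acid oxidation went both ways, while those of glucose synthesis were all on the kidney side. Of 19 fatty acid oxidation genes, 4 were heart-higher, 3 were kidney-higher and 12 neither. Cpt1b, the muscle form of the enzyme that admits fatty acids to mitochondria, was at 542, 535 and 501 CPM in uninjured 1, uninjured 4 and nephrectomy 3 against 31.1 ± 6.60 CPM (SD, n = 5), and Cpt1a, its liver form, at 64.5, 59.5 and 68.8 CPM against 604 ± 34.8 CPM. Hadha and Hadhb, the mitochondrial trifunctional protein, and Fabp3, the heart fatty acid binding protein, were the other heart-higher members. Ehhadh, of the peroxisomal route, was among the kidney-higher members, at 13.8, 15.3 and 13.1 CPM against 1101 ± 133 CPM. All 7 genes of gluconeogenesis and renal sugar handling were kidney-higher, with a median difference of -8.37. Pck1, which commits carbon to glucose synthesis, was at 29.4, 1.13 and 26.3 CPM in the same order, so uninjured 4 stood apart from the other 2 heart-profile libraries, and at 4206 ± 1015 CPM in the kidney-profile ones. Of 10 ketone and creatine genes, Ckm and Ckmt2, the muscle creatine kinases, were heart-higher and Gatm and Ckmt1 kidney-higher. Gatm, which makes the creatine precursor, was at 3.39, 4.33 and 4.40 CPM against 823 ± 104 CPM.

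The respiratory chain, by contrast, differed by about the same modest amount throughout. None of 24 nuclear-encoded subunits and none of 13 mitochondria-encoded genes met the rule, and the median differences were 0.99 and 0.97 on the log2 scale. The mitochondria-encoded genes took 8.52%, 7.28% and 7.15% of the counts in uninjured 1, uninjured 4 and nephrectomy 3 and 2.78% to 3.88% in the kidney-profile libraries, with no overlap. Most of that was mt-Co1, cytochrome oxidase subunit 1, at 56585, 50398 and 49070 CPM against 20417 ± 1621 CPM (SD, n = 5). The 10 reference genes, such as Actb and Gapdh, had a median difference of -0.60 and none met the rule.

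In many paralogue pairs the larger member was not the same in heart-profile and kidney-profile libraries. In 14 of 25 pairs, compared per length in TPM, the larger member was the same within each side and different between them; all 14 also switched by raw counts. In the oxidase, Cox6a2 made up 86.9% to 88.2% of Cox6a2 plus Cox6a1 in the heart-profile libraries and 0% to 2.44% in the kidney-profile ones, Cox7a1 made up 64.1% to 69.4% against 3.48% to 7.70% of its pair with Cox7a2, and Cox8b made up 69.2% to 71.7% against 0% to 2.84% of its pair with Cox8a. Slc25a4, the muscle adenine nucleotide carrier, held 89.1% to 90% of its pair with Slc25a5 in heart-profile libraries and 11.8% to 13.6% in kidney-profile ones. In glycolysis the switching pairs included Eno3 with Eno1, Pgam2 with Pgam1 and Hk2 with Hk1, and in glycogen breakdown Pygm with Pygl. Ckm with Ckb, Ckmt2 with Ckmt1, Cpt1b with Cpt1a, Slc2a4 with Slc2a2 (the insulin-responsive against the basolateral tubule glucose transporter) and Acsl1 with Acsm2 were also among the 14. No Cox6a, Cox7a or Cox8 gene is in the respiratory chain list above. Pairs that did not meet this rule included Ldhb with Ldha, the lactate dehydrogenase subunits.

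**Figure D3:**
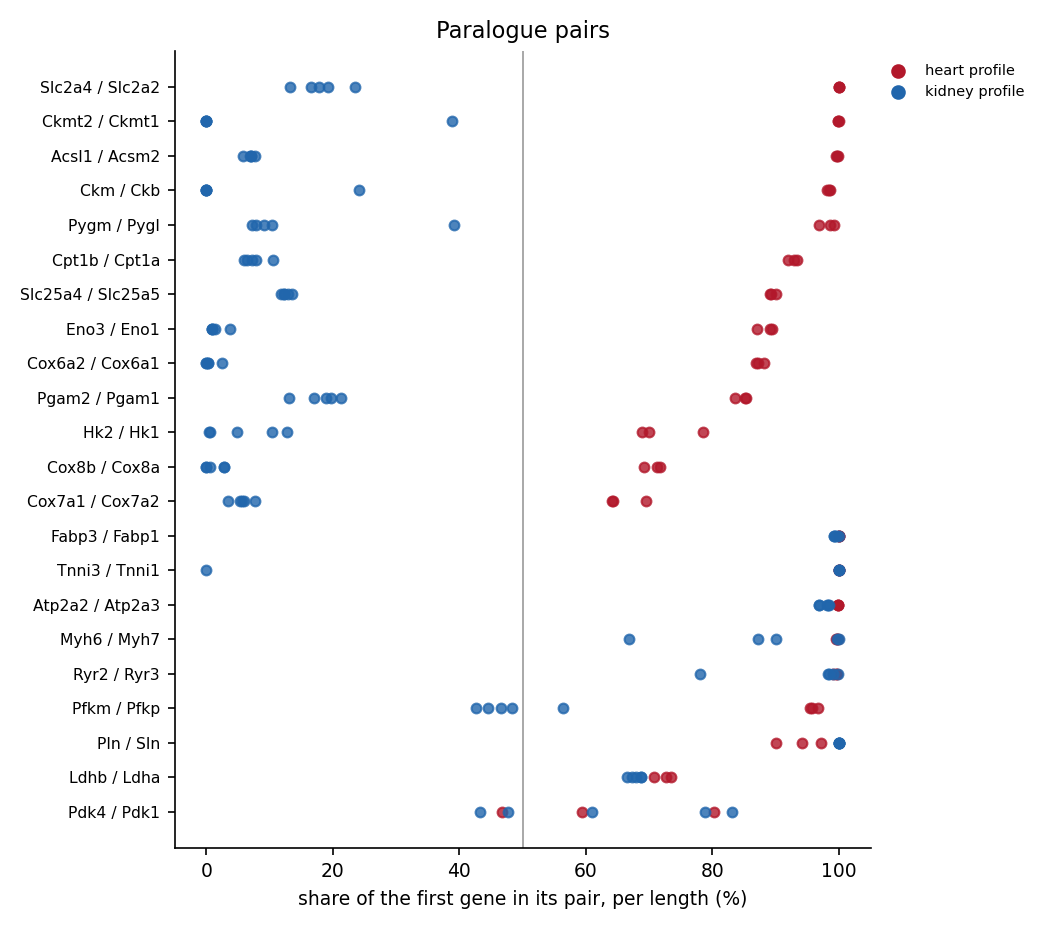
Share of the first named gene in most of the paralogue pairs, in percent of the pair's summed TPM, one point per library. In the pairs drawn from Slc2a4 down to Cox7a1 the heart-profile points lie above 50% and the kidney-profile points below it, with Cox6a2 at 86.9% to 88.2% against 0% to 2.44%.

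Within genes, the leading transcript also differed for a minority. Among 910 genes with at least 100 counts in each of the 8 libraries, 56 (6.15%) had one leading transcript in all heart-profile libraries and another in all kidney-profile ones. In 6 of them the share of the heart form and the share of the kidney form were each separated by at least 50 percentage points. These are estimated shares for transcripts that share exons, so they carry the estimation error of the quantifier. Ranked by the smaller of these separations, Slc8a1 came first: Slc8a1-201 held 97.7% to 99.6% of the gene's counts in the heart-profile libraries, and Slc8a1-202 held 85.7% to 100% in the kidney-profile libraries. For Atp2a2, transcript Atp2a2-202 held 80.3%, 81.5% and 79.4% in uninjured 1, uninjured 4 and nephrectomy 3, at most 1.63% in 4 kidney-profile libraries and 25.1% in nephrectomy 1. Pkm, pyruvate kinase, gave Pkm-202 at 58.8% to 60.2% against 9.34% to 14.5%. Of 20 genes listed for known muscle isoforms, 7 had enough counts and these 3 switched. The other genes with both forms separated by at least 50 points were Mfn2 (mitochondrial fusion), Atp5c1 (the gamma subunit of ATP synthase), Slc25a3 (the phosphate carrier), Psap and Ak4.

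Chamber genes were present from both kinds of chamber, and their proportion varied between the heart-profile libraries. Of 12 atrial genes, 9 were heart-higher, and of 6 ventricular genes, 4 were. The atrial list took 0.414%, 0.288% and 0.683% of the counts in uninjured 1, uninjured 4 and nephrectomy 3. Nephrectomy 3 was the highest and uninjured 4 the lowest for Nppa, Mybphl, Dkk3, Kcnj3, Myl7, Myl4 and Sln. Myl7 was at 334, 151 and 426 CPM, Myl4, the atrial essential light chain, at 754, 417 and 1067 CPM, and Sln, sarcolipin, at 149, 84.5 and 222 CPM. Bmp10, a growth factor of right atrial muscle, was also highest in nephrectomy 3, at 743 CPM, but lowest in uninjured 1, at 260 CPM. Ventricular Myl2 varied less, at 2963, 2802 and 2355 CPM. Nr2f2 at 36 ± 6.28 CPM (SD, n = 3) was an atrial member that went the other way, against 128 ± 17.4 CPM (SD, n = 5) in the kidney-profile libraries; Gja5 was not called. Among ventricular members Irx4 was at 15.9, 17.5 and 9.61 CPM, and Irx5 and Hey2 missed the rule. Of 7 conduction genes 4 were heart-higher, among them the pacemaker channel Hcn4 at 24.9, 27.0 and 22.7 CPM and Cntn2 at 38.7, 34.6 and 38.5 CPM.

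Genes of the stress and fetal programme moved in different directions within the 3. All 6 were heart-higher. Nppb, the B-type natriuretic peptide, was highest in nephrectomy 3, at 105 CPM against 62.0 and 49.3 CPM in uninjured 1 and 4. Myh7, the beta myosin heavy chain, was lowest there, at 30.5 CPM against 142 and 81.5 CPM, and so was Acta1, skeletal alpha actin, at 51.9 CPM against 239 and 127 CPM. Xirp2 was also lowest in nephrectomy 3, at 1123 CPM against 1687 and 1449 CPM in uninjured 1 and 4. Ankrd1 in nephrectomy 3, at 510 CPM, lay between uninjured 1 at 623 CPM and uninjured 4 at 443 CPM.

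Connective tissue, vessels and blood were represented too. Fibroblast genes gave 4 heart-higher members of 9, smooth muscle and pericyte genes 2 of 8, macrophage genes 2 of 9 and capillary endothelial genes 3 of 13. Dcn, decorin, was at 618, 484 and 737 CPM against 21.3 CPM on average, and Vwf, von Willebrand factor of endothelium, at 344, 326 and 425 CPM against 13.3 ± 7.34 CPM (SD, n = 5). Col3a1 was at 194 and 183 CPM in uninjured 1 and 4 and at 787 CPM in nephrectomy 3, and Postn, periostin, at 74.3, 68.0 and 226 CPM, so nephrectomy 3 was the highest for both matrix genes. None of 6 mesothelial genes met the rule, with Upk3b at 27.2, 10.95 and 19.8 CPM. None of the 5 lung genes passed the filter, and of 11 skeletal muscle genes only Tnnt1, the slow skeletal troponin T, was heart-higher, at 6.34, 5.08 and 5.68 CPM. The fast myosins Myh1, Myh2 and Myh4 were at or below 0.119 CPM in every library. The Y-linked genes Ddx3y, Uty, Eif2s3y and Kdm5d were at 39.9 CPM or above in all 8 libraries.

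Nephrectomy 1, a kidney-profile library, carried heart transcripts at about 1% of their heart-profile level. A set of 53 genes was taken, after the values were seen, that averaged at least 100 CPM in the heart-profile libraries and stayed at or under 0.5% of that mean in each of 28 other kidney libraries, leaving nephrectomy 1 out of the choice. In nephrectomy 1 their median was 1.12% of the heart-profile mean, with quartiles of 0.972% and 1.23%, and 48 of the 53 lay between 0.5% and 2%. Their summed level there was 1.07% of the heart-profile mean, from 46261 counts, against 0.0204% to 0.0298% in the other 4 kidney-profile libraries. In the 24 ischaemia-arm libraries it ran from 0.01015% to 0.152%. The choice of genes keeps the level low in all 28 of these libraries. In nephrectomy 1, Myh6 was at 1.01%, Actc1 at 1.12%, Ttn at 1.08% and Ckm at 1.37%. The remaining 5 were under 0.1%, and all 5 belong to the atrial list: Bmp10 and Sln had 0 counts, Nppa 4, Myl4 4 and Myl7 3 counts. The sixth atrial member of the set, Kcnj3, was at 0.836%, and none of the 47 other genes was under 0.1%. These 5 genes stood between 84.5 and 3296 CPM in the 3 heart-profile libraries. The cause of the trace was not tested. Slc34a1 in nephrectomy 1 lay within the range of the other kidney-profile libraries, at 4983 CPM, and Umod, at 3796 CPM, was the lowest of the 5.

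**Figure D4:**
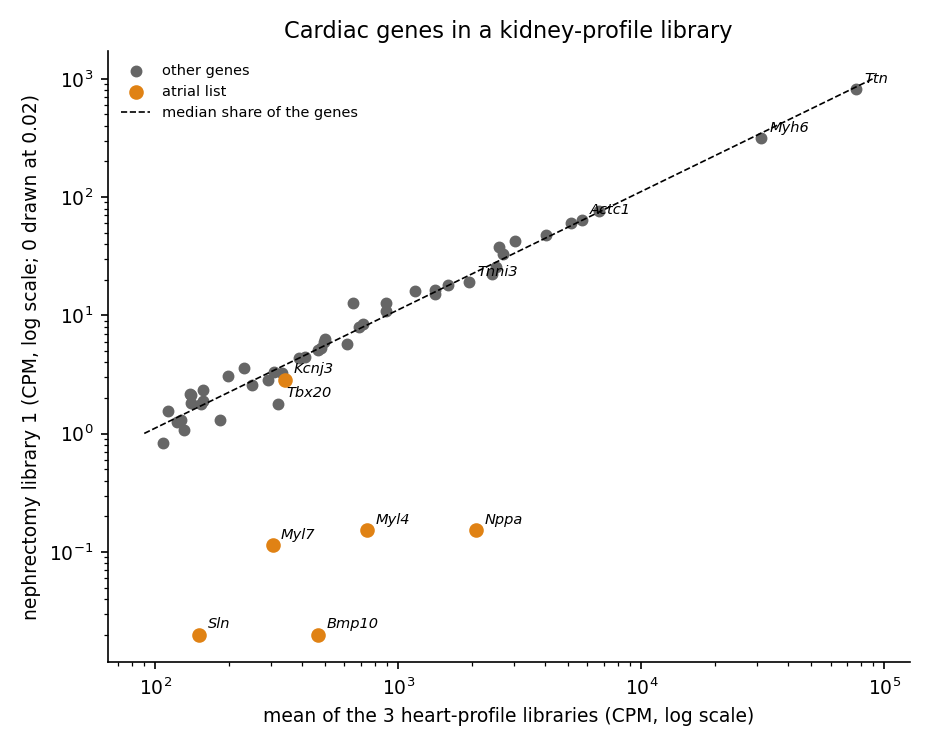
Level of 53 heart-profile genes in nephrectomy 1 against their mean in the 3 heart-profile libraries, both in CPM on log axes, with atrial-list genes in orange, genes at 0 drawn at the bottom and a dashed line at the median share of 1.12%. Most points lie along the line, and 5 atrial genes, at under 0.1% of their heart-profile mean, lie far below it.

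The reverse trace, of kidney transcripts in the heart-profile libraries, was smaller than the heart trace in nephrectomy 1. Its genes were chosen by another rule, with no limit on their level in the heart-profile libraries. Over 26 kidney-list genes of at least 100 CPM in the kidney-profile libraries, the median level was 0.0630% of the kidney mean in uninjured 1, 0.0379% in uninjured 4 and 0.0977% in nephrectomy 3. Podxl and Aqp1, genes of endothelium as well, were far above this, and Egf was at 26.9, 29.1 and 27.5 CPM against 2392 ± 148 CPM (SD, n = 5). Ptger3, a prostaglandin receptor, stood apart in uninjured 1 alone, at 15.3 CPM against 0.80 and 2.42 CPM in uninjured 4 and nephrectomy 3.

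The single-cell tables give levels of the same markers in kidney cells. By its name the first table is from injured kidney, taken 2 weeks after 15 minutes of ischaemia, and the second from uninjured kidney, 1 pooled sample each, so no test was possible between them. The 3063 cells of the first held 7758562 unique molecular identifiers (UMIs) and the 1313 cells of the second 4052247, with 8 cell barcodes in common. Sums run over all deposited cells, with no cell removed, no doublet caller run and no correction for free RNA. Slc34a1 had 7768 UMIs, 1001 CPM (979 to 1024, exact Poisson interval at 95%, counting error only), in the first and 11105 UMIs, 2740 CPM (2690 to 2792), in the second. Ttn had 11 UMIs, 1.42 CPM (0.708 to 2.54), and 3 UMIs, 0.740 CPM (0.153 to 2.16), and Tnnt2 had 9 UMIs, 1.16 CPM (0.530 to 2.20), in the first. Umod was at 640 and 784 CPM, so both kidney markers were far above both heart muscle genes. Myh6 and Actc1 were not analysed here in these tables.

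The heart-profile libraries resembled each other closely without being copies. Over 13347 genes, Pearson's r of log2 values was 0.988 between uninjured 1 and 4, 0.983 between nephrectomy 3 and uninjured 1 and 0.981 between nephrectomy 3 and uninjured 4; these are correlations across genes, which are not independent replicates. Genes past 2-fold numbered 159, 283 and 413 in that order. Counting noise gives a mean chi-square near 1 per gene, and the pairs gave 33.2, 42.1 and 44.9. Because nephrectomy 3 is the only heart-profile library labelled nephrectomy, no test of nephrectomy in heart-profile libraries was possible, and its label cannot be told apart from that single library.

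Nephrectomy 3 stood at least 2-fold above both uninjured heart-profile libraries in 144 genes (1.08%) and at least 2-fold below both in 26 (0.195%). The 5 widest gaps above were Nr4a3, an orphan nuclear receptor induced early after many stimuli, at 214 CPM against 3.48 and 5.76 CPM in uninjured 1 and 4, Atf3, a stress-induced transcription factor, at 94.3 against 3.84 and 7.90 CPM, Irs2, the insulin receptor substrate, at 427 against 33.5 and 50.5 CPM, Ciart, a circadian repressor, at 50.9 against 5.86 and 5.58 CPM, and Slc16a3, a lactate transporter, at 16.5 against 1.71 and 1.60 CPM. Nr4a1, Nr4a2, Maff, Sik1 and Cdkn1a were among the next 10. The 5 widest gaps below were Cyp26b1, which degrades retinoic acid, at 9.68 against 64.2 and 105.6 CPM, Aplnr, the apelin receptor, at 2.82 against 13.8 and 23.96 CPM, Lars2, Myh7 and Ptgds. Lars2, a mitochondrial tRNA synthetase, was at 73.4 against 201 and 238 CPM, and Ptgds, prostaglandin D synthase, at 32.6 against 82.0 and 86.4 CPM.

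The labelled comparison, nephrectomy against uninjured, is the contrast in which the 3 libraries matter for a test. With all 8 libraries, edgeR's quasi-likelihood test at a Benjamini-Hochberg adjusted p under 0.05 called 54 of 17208 genes (0.314%), 49 higher (0.285%) and 5 lower after nephrectomy. With the 5 kidney-profile libraries it called 31 of 17591 (0.176%), 23 higher (0.131%) and 8 lower. The fits share libraries, so the overlap of their calls is not given. The fit of all libraries rests on single libraries: it called 5258 genes without nephrectomy 3, 1547 without uninjured 3, and 15, 17, 21 and 25 without uninjured 1, nephrectomy 2, uninjured 4 and nephrectomy 4. The kidney-profile fit called 76 without nephrectomy 1, 9 without nephrectomy 2 and 2 each without nephrectomy 4 or uninjured 2. Adding a term for the heart profile to the fit of all libraries, an alternative chosen after seeing the data, gave 83 calls, 75 higher and 8 lower. Without the 24 ischaemia-arm libraries to share the estimate of spread, the 8 libraries gave 0 calls in edgeR (321 genes had an unadjusted p below 0.05), and the 5 kidney-profile libraries gave 104.

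None of the 5 markers was called. Myh6 had a log2 fold change of -1.10 ± 1.82 (SE) with all libraries and 6.50 ± 2.03 with the kidney-profile libraries, adjusted p 0.766 and 0.224 in edgeR, the second resting on nephrectomy 1. Slc34a1 changed by 0.78 ± 1.29 and 0.23 ± 0.46, adjusted p 0.765 and 1. No member of the gene lists described above passed either fit. With the heart-profile term described above, Kcnj2 fell by 1.42 ± 0.31 (edgeR adjusted p 0.0300). It was at 87.8 CPM in nephrectomy 3 against 132 and 148 CPM in uninjured 1 and 4. In nephrectomy 1, 2 and 4 it was at 6.78, 11.8 and 8.29 CPM, against 8.45 and 49.6 CPM in uninjured 2 and 3. Uninjured 2 thus lay within the range of nephrectomy 1, 2 and 4. At its depth 3 counts already amount to 5.07 CPM, so its level of Kcnj2 rests on few counts.

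Among kidney-profile libraries, the 10 largest rises after nephrectomy with a mean of at least 1 on the log2 CPM scale ran from Nr4a3 to Pvr. Nr4a3 was at 13.6, 19.7 and 14.1 CPM in nephrectomy 1, 2 and 4 and at 0 and 0.927 CPM in uninjured 2 and 3, a rise of 4.36 ± 0.88 (log2 fold change ± SE, edgeR adjusted p 0.0362). Plk3, a stress-responsive polo-like kinase, was at 93.0, 149.6 and 162.5 CPM against 8.45 and 8.35 CPM, a rise of 4.14 ± 0.70 (edgeR adjusted p 0.0170). Jun, a component of AP-1, was at 110, 368 and 274 CPM against 42.2 and 40.1 CPM, a rise of 2.76 ± 0.56 (edgeR adjusted p 0.0402). Slc25a25, a calcium-regulated mitochondrial ATP-Mg carrier, was at 529, 676 and 621 CPM against 137 and 135 CPM, a rise of 2.31 ± 0.40 (edgeR adjusted p 0.0170). Sik1, a salt-inducible kinase, was at 241, 310 and 347 CPM against 108 and 122 CPM, a rise of 1.51 ± 0.28 (edgeR adjusted p 0.0217). Pmaip1, Ddit4, Klf11, Tob2 and Pvr rose by 2.48, 2.04, 1.43, 1.37 and 1.27 in the same fit. For none of the 31 genes did the nephrectomy and uninjured kidney-profile libraries overlap, but the test on these same libraries chose the genes. The share of all tested genes without overlap was not computed. Gm20388 and Pgam1-ps2 had 0 counts in both uninjured kidney-profile libraries, so no fold is given, and as a predicted gene and a pseudogene their counts are uncertain.

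Of the genes that fell, Ppp1r3b, a glycogen-targeting subunit of protein phosphatase, was at 2.93, 0.786 and 1.56 CPM in nephrectomy 1, 2 and 4 against 30.4 and 42.3 CPM, and fell by 4.26 ± 0.74 (edgeR adjusted p 0.0170). Arxes2, Kcnk2, Phlda3, Shisa2, Slc1a3, Zfp128 and Rbsn fell by 2.96, 2.58, 2.58, 2.39, 2.06, 1.07 and 0.56. Arxes2 is an adipocyte gene, and the 5 adipocyte markers moved with the groups: Adipoq was at 4.23, 0.25 and 0 CPM in nephrectomy 1, 2 and 4 against 15.2 and 23.1 CPM in uninjured 2 and 3, and Plin1 at 3.10, 0.261 and 0.711 against 25.3 and 29.5 CPM. Neither passed the test, with edgeR adjusted p of 0.685 and 0.446, and their part in the result was not tested. Depth moves with the groups as well, since the uninjured kidney-profile libraries are the shallower ones, and its part was not tested either.

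The same genes were looked up in the heart-profile libraries, which that fit did not use. Of the 23 that rose in kidney-profile libraries, 18 (78.3%) were higher in nephrectomy 3 than in both uninjured heart-profile libraries and 0 were lower than both, where 45.7% of all tested genes were higher than both. Their median difference in heart-profile libraries was 0.67 on the log2 scale, against 0.04 over all tested genes. The difference between these shares was not tested, since it rests on 1 library. Nr4a3 (214 against 3.48 and 5.76 CPM), Sik1 (295 against 32.6 and 60.0 CPM), Plk3 (8.91 against 1.5 and 2.40 CPM), Impact (119 against 39.1 and 37.6 CPM) and Slc25a25 (43.0 against 10.5 and 18.0 CPM) showed the widest separations there. Ddit4, by contrast, lay between the uninjured heart-profile libraries, at 33.2 CPM against 31.1 and 37.5 CPM. Of the 8 that fell, 2 (25%) were below both uninjured heart-profile libraries, near the 26.3% of all tested genes, and Rbsn was above both. Ppp1r3b was at 124 CPM in nephrectomy 3 against 129 and 112 CPM, so its separation in the kidney-profile libraries had no counterpart there.

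**Figure D5:**
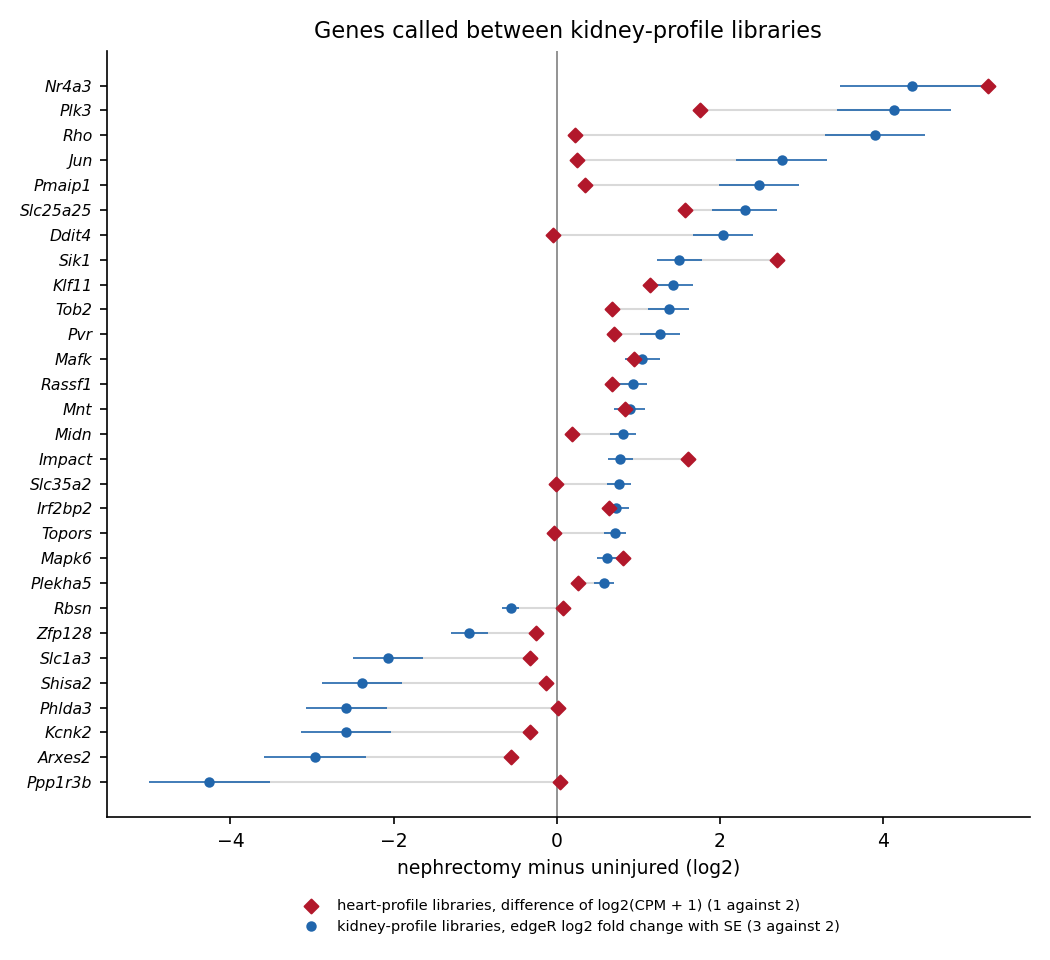
For the 31 genes called between nephrectomy and uninjured kidney-profile libraries, except Gm20388 and Pgam1-ps2, the edgeR log2 fold change with its SE in those libraries (blue circles, 3 against 2) and the difference of log2(CPM + 1) in the heart-profile libraries (red diamonds, 1 against 2, no error). Of the 23 genes that rose, 18 had a higher level in nephrectomy 3 than in both uninjured heart-profile libraries.

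With the heart-profile term in the fit, the 10 largest rises among called genes with a mean of at least 1 on the log2 CPM scale were those of Pgam1-ps2, Nr4a3, S100a8, Atf3, Gm45551, Nr4a1, Nr4a2, Plk3, Maff and Apold1. Nr4a3 rose by 5.15 ± 0.53 (edgeR adjusted p 4.82e-06). Atf3 was at 94.3 CPM in nephrectomy 3 against 3.84 and 7.90 CPM, and at 9.07, 11.6 and 20.2 CPM in nephrectomy 1, 2 and 4 against 0 and 1.72 CPM in uninjured 2 and 3, a rise of 3.64 ± 0.63 (edgeR adjusted p 0.00402). S100a8, a neutrophil alarmin, rose by 4.64 ± 0.94 (edgeR adjusted p 0.0166), from 0.240, 0.178 and 0.133 CPM in uninjured 1, 4 and 3 to between 3.85 and 5.50 CPM in the nephrectomy libraries. Uninjured 2 had 0 counts of S100a8 and Atf3, which at its depth allows up to 5.07 CPM. Nr4a1, Nr4a2, Maff and Apold1 rose by 3.50, 3.34, 2.50 and 2.48. Hcar1, a lactate receptor, Adora2a, an adenosine receptor, and Kcnj2 had the largest falls, by 2.50, 1.70 and 1.42. For Kcnj2, uninjured 2 lay within the range of nephrectomy 1, 2 and 4, as given above. In this fit nephrectomy 3 is the only nephrectomy library of heart profile.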

How the data were processed

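Salmon 1.4, Cell Ranger, STAR and GRCm38 (mm10) are named, per the submitters' processing notes, with no role for each; index and options were not given in the sources used here. The authors deposited estimated counts per transcript for the bulk libraries and UMI counts per gene and cell for the single cells. Estimated counts of 105833 transcripts were summed to 33644 genes with the GENCODE M21 annotation (630 transcripts, 0.213% of counts, had no match), and rounded for the count tests. CPM used all counts; TPM used transcript lengths. Genes entered the tissue comparison at 1 CPM in at least 2 libraries, and differences used log2(CPM + 1). edgeR 4.0.16 (R 4.3.3, limma 3.58.1) fitted all 8 bulk groups together with TMM factors and the quasi-likelihood test, adjusted over all tested genes; SE is the fold change over the root of its F. DESeq2 1.42.0 was an alternative. The code was checked on simulated data. Figures used Python 3.11.15 and matplotlib 3.10.9. Libraries, gene lists and genes were chosen with earlier results of these data known. Named genes were the 5 markers, list members with the highest level or largest difference or against their list, the 15 widest gaps each way, the 10 highest TPM, switching paralogues and isoforms, the 10 largest called fold changes each way and the 5 widest gaps each way of nephrectomy 3. Equal library numbers were not used as pairs in the main fits. The correlations of deviations from the group means were -0.715, 0.705, -0.896 and -0.818 for numbers 1 to 4. They cannot decide whether equal numbers are pairs, because the group means mix both profiles. Numbers 1, 3 and 4 each join a heart-profile and a kidney-profile library, and number 2 joins kidney-profile ones. Some genes that these rules name are not reported here.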

Additional observations from a re-analysis of the deposited data

Results flagged for a closer look

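Of 36 groups of values examined, 15 held a library whose gap to its nearest neighbour exceeded Dixon's 95% limit. Chance gives such a gap in about 1 in 20 groups, but 11 of the 15 concern nephrectomy 3, which was selected on Myh6, so their number cannot be read against that rate. In the nephrectomy group, nephrectomy 3 stood apart for Myh6 (31039 CPM against at most 313.6), Actc1 (5300 CPM), Tnnt2 (2736 CPM), Slc34a1 (3.70 CPM against at least 4789), Umod (0.807 CPM) and for the shares of counts of the sarcomere (14.1%), calcium cycling (3.10%), proximal tubule (0.0485%), loop of Henle (0.00315%), distal convoluted tubule (0.00140%) and collecting duct lists (0.000601%). Among the 5 kidney-profile libraries, nephrectomy 1 stood apart for Myh6 (313.6 CPM against at most 1.69), Actc1 (63.5 CPM), Tnnt2 (22.2 CPM) and the sarcomere list (0.165%). The uninjured group, with 2 libraries of each profile, gave no single library apart.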

How the results depend on the processing

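The direction of the 5 markers is fixed by the choice of libraries and is no sign of stability. Of the tissue comparison, a gap of 2 times gave 1476 heart-higher and 2329 kidney-higher genes, a gap of 8 times 369 and 759, and the 24 ischaemia-arm libraries as kidney 379 and 770. Leaving out 1 library at a time gave 668 to 713 and 1259 to 1343. TMM scaling gave 746 and 1150 and RLE scaling 792 and 1085. Nephrectomy 3 was 4-fold above both other heart-profile libraries in 19 genes and below in 5. A minimum of 30 counts gave 138 of 3518 genes (3.92%) with different leading transcripts, against 56 of 910 (6.15%) at 100 counts. For nephrectomy against uninjured with all libraries, DESeq2 called 207 genes, the 2 groups alone 0 in edgeR (321 at an unadjusted p under 0.05, while DESeq2 was run only with all groups), a heart-profile term, added after seeing the data, 83, and leaving out 1 library 15 to 5258. With the replicate number as a block, the 2 groups alone gave 0 calls in edgeR (122 at an unadjusted p under 0.05). For the kidney-profile libraries, DESeq2 called 116, the 2 groups alone 104, and leaving out 1 library 2 to 76. No paired analysis was possible for the kidney-profile libraries because they share only number 2. Fits without uninjured 2 or uninjured 3 leave 1 uninjured kidney-profile library, assumed to vary like the other groups. Why the counts move was not tested. In all, 116 recomputed values were classed as the same and 25, all of them counts, moved further. A count was the same within 1.5 times. A marker difference was the same if it kept its sign, which the choice of libraries fixes, so the 116 are no measure of stability. At the depth of uninjured 2, a count of 0 allows up to 5.07 CPM. The 3 heart-profile libraries, with 1 from nephrectomy, allow no test of nephrectomy within that profile.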

Other observations

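Adipocyte genes varied within both profiles. Adipoq was at 41.8, 2.79 and 11.9 CPM in uninjured 1, uninjured 4 and nephrectomy 3, and Plin1, which coats lipid droplets, at 41.8, 3.56 and 13.1 CPM. Ucp1, the uncoupling protein of brown fat, was at 17.7, 0.594 and 5.94 CPM there, and in the kidney-profile libraries at 6.76 and 26.5 CPM in uninjured 2 and 3 and at most 0.152 CPM after nephrectomy.

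Erythroid genes were higher in the heart-profile libraries without meeting the 4-fold gap in any of 5 members. Hbb-bs, a beta globin, was at 842, 661 and 848 CPM in uninjured 1, uninjured 4 and nephrectomy 3, and between 119 and 196 CPM in the kidney-profile libraries. Cdh19, a cadherin of Schwann cells, was at 14.5, 13.8 and 21.0 CPM against at most 0.927 CPM, and was the 1 Schwann cell gene of 5 that met the rule. Ttr, transthyretin, a member of the liver list, was at or below 0.367 CPM in the heart-profile libraries and at 129, 173, 104, 81.1 and 72.3 CPM in nephrectomy 1, 2 and 4 and uninjured 2 and 3.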
